A study of Mus musculus with 40 samples.

Results

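A set of 9 genes that govern the decay of cytokine mRNAs was followed in mouse cardiac fibroblasts: *Zfp36*, *Zfp36l1*, *Zfp36l2*, *Zc3h12a*, *Zc3h12c*, *Rc3h1*, *Rc3h2*, *Elavl1* and *Mapkapk2*. They were chosen by name, with earlier results of these data known, and are 9 of the 55414 Ensembl gene identifiers in the count table. All 9 were among the 25210 genes with at least 10 counts summed over the 40 libraries, which were the genes tested.

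The fibroblasts came from hearts of adult C57BL/6J mice with floxed alleles of the gene for TGFβ-activated kinase 1 (TAK1fl/fl) and were used at passage 1 after expansion in serum with bFGF. All groups carried the floxed alleles and an adenovirus with the CMV promoter, which encoded either Cre recombinase (iCre) or the control protein LacZ. The cells were then serum-starved and kept without ligand (Con) or for 24 h with 1 of 4 ligands: TNFα or TGFβ, both at 10 ng/ml, IL-1β at 15 ng/ml, or bFGF at 20 ng/ml. Each of the 10 combinations of virus and ligand had 4 replicates, described by the study as male biological replicates. No age in weeks is given in the sources used here.

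As background, many cytokine mRNAs carry AU-rich sequences or stem-loops in the 3′ untranslated region (UTR) that shorten their life. The ZFP36 proteins (*Zfp36*, also called tristetraprolin, *Zfp36l1* and *Zfp36l2*) bind AU-rich elements and bring in the enzymes that remove the poly(A) tail, whereas the Regnase proteins (*Zc3h12a* for Regnase-1, *Zc3h12c* for Regnase-3) cut stem-loops and the roquins (*Rc3h1*, *Rc3h2*) bind them. HuR, the product of *Elavl1*, binds AU-rich mRNAs and stabilises them, and MK2, the product of *Mapkapk2*, is the kinase below p38 that phosphorylates ZFP36 and holds back its decay activity. TAK1 is the kinase through which the IL-1 and TNF receptors reach NF-κB and the p38 and JNK kinases.

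Several of these regulators carry in their own mRNA the element that the ZFP36 proteins read. The nonamer TTATTTATT, searched on the sense strand of the 3′ UTR of the longest protein-coding transcript (GENCODE M21, GRCm38), was in 6 of the 9 genes (66.7%) and in 7.59% of all 20895 genes with a 3′ UTR. Of 22 mRNAs listed as known targets of these regulators it was in 10 (45.5%). The UTRs differ in length, with a median of 1835 bases for the 9 genes, 735 for the targets and 941 for all genes. Among UTRs of like length (0.8 to 1.25 times), the share with the nonamer was 4.21% for *Zfp36*, 9.94% for *Zfp36l1*, 9.82% for *Zfp36l2*, 17.7% for *Elavl1*, 22% for *Rc3h2* and 27.9% for *Rc3h1*. *Elavl1* held 8 matches, counted with overlaps and all within chr8:4285741-4285816, so they are not 8 separate sites. The other 5 held 1 each, while *Zc3h12a*, *Zc3h12c* and *Mapkapk2* held none. Shown here are 30 bases around 1 match of the nonamer (in capitals) for the ZFP36 genes and *Elavl1*, and for 2 targets whose levels are given further on, *Cxcl1* for a chemokine and *Ptgs2* for cyclooxygenase 2. The capitals of *Elavl1* span overlapping matches, and *Elavl1* and *Cxcl1* have further matches that are not shown.
Zfp36, chr7:28376950-28376979, minus strand: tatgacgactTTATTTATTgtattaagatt
Zfp36l1, chr12:80108166-80108195, minus strand: aactgttggaTTATTTATTttagaaattct
Zfp36l2, chr17:84184913-84184942, minus strand: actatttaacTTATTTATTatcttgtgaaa
Elavl1, chr8:4285787-4285816, minus strand: gtcatgaaaaTTATTTATTTATTTATTtat
Cxcl1, chr5:90892615-90892644, plus strand: atttatgtatTTATTTATTccacaaagtgt
Ptgs2, chr1:150105790-150105819, plus strand: ctgaccatatTTATTTATTtatgtgaagaa

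RefSeq promoter windows (GRCm38.p6, 250 bases before to 50 after the start) were found for 8 of the 9 genes, with none for *Zfp36l2*. They were searched on both strands for the NF-κB motif, the AP-1 motif TGANTCA and the GC box GGGCGG, which were in 8.46%, 7.81% and 35.7% of all 32851 promoter windows. The windows of both Regnase genes are printed because these genes had the largest rises of the 9 with IL-1β in LacZ. That of *Zc3h12a* held 5 GC boxes (in capitals, 143 to 20 bases before the start) and no NF-κB or AP-1 motif. The first of the 2 windows of *Zc3h12c* held 1 NF-κB motif (in capitals), 236 bases before the start, and 1 GC box. *Zfp36l1* and *Rc3h1* held 1 AP-1 motif each, and *Zfp36*, *Rc3h1* and *Mapkapk2* held 1, 6 and 1 GC boxes. No matches of different motifs overlapped. A match describes these letters only.
Zc3h12a, chr4:125127832-125128131, minus strand: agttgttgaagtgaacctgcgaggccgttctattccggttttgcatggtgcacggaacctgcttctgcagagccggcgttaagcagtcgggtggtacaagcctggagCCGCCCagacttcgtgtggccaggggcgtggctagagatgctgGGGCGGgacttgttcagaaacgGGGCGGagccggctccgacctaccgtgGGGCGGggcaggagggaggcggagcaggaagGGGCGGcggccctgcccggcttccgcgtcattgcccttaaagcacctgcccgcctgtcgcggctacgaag
Zc3h12c, chr9:52168357-52168656, minus strand: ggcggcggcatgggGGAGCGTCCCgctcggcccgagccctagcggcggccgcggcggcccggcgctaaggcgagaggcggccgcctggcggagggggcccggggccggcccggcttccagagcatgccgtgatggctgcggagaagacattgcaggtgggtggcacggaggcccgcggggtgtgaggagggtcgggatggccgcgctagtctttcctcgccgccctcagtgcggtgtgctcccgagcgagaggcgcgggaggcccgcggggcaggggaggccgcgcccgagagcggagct

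The libraries held 25360947 to 66160732 counts (median 36183962), and the 9 genes had between 205 and 22979 counts in any library. The summed level of 10 fibroblast markers was 15351 to 69714 CPM (counts scaled to a common library size by TMM) over the 40 libraries. Markers of macrophages and leukocytes (5 of 5 tested) summed to 16.3 to 156 CPM, endothelial markers (3 of 3) to 0.746 to 13.4, mural markers (3 of 3) to 71.2 to 1918 and cardiomyocyte markers (2 of 3, *Myh6* being under the count minimum) to 0.299 to 110. The part of these cells in the results was not tested, and in bulk samples fewer cells of a type and less RNA per cell cannot be told apart. *Map3k7*, the gene for TAK1, is counted over all its exons, so transcripts of the recombined allele count too. It was at 153 ± 6.51 CPM in LacZ Con and 127 ± 4.27 CPM in iCre Con (SD, n = 4), and with TGFβ, IL-1β and TNFα it was lower in iCre by 0.67, 0.82 and 0.71 on the log2 scale (adjusted p = 0.00088, 0.000274 and 0.000829), whereas the differences in Con (-0.28, adjusted p = 0.137) and with bFGF (-0.40, adjusted p = 0.351) passed with the replicate number as a block (adjusted p = 0.00393 and 0.000409).

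One property of the libraries moved with the groups. Each gene's log2 CPM was taken as its deviation from the gene's mean over the 40 libraries. Across 12061 protein-coding genes this deviation rose with transcript GC content in 12 libraries, those of iCre cells given TNFα, IL-1β or TGFβ. The slope per 10% GC in them was 0.201 to 0.342. In the other 28 libraries the slope was -0.249 to -0.000574. These slopes are relative between libraries, so their signs do not give the GC dependence within a library. Every comparison of these 3 iCre groups with iCre Con or with LacZ therefore carries a GC trend that cannot be told apart from the group. The transcripts of *Rc3h2* (38.8% GC), *Zc3h12c* (41.4%) and *Rc3h1* (41.7%) were the poorest in GC of the 9, and those of *Mapkapk2* (57.6%) and *Zc3h12a* (57.1%) the richest. Values from a fit corrected for GC content are given beside those results whose call or size depended on it most.

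**Figure D1:**
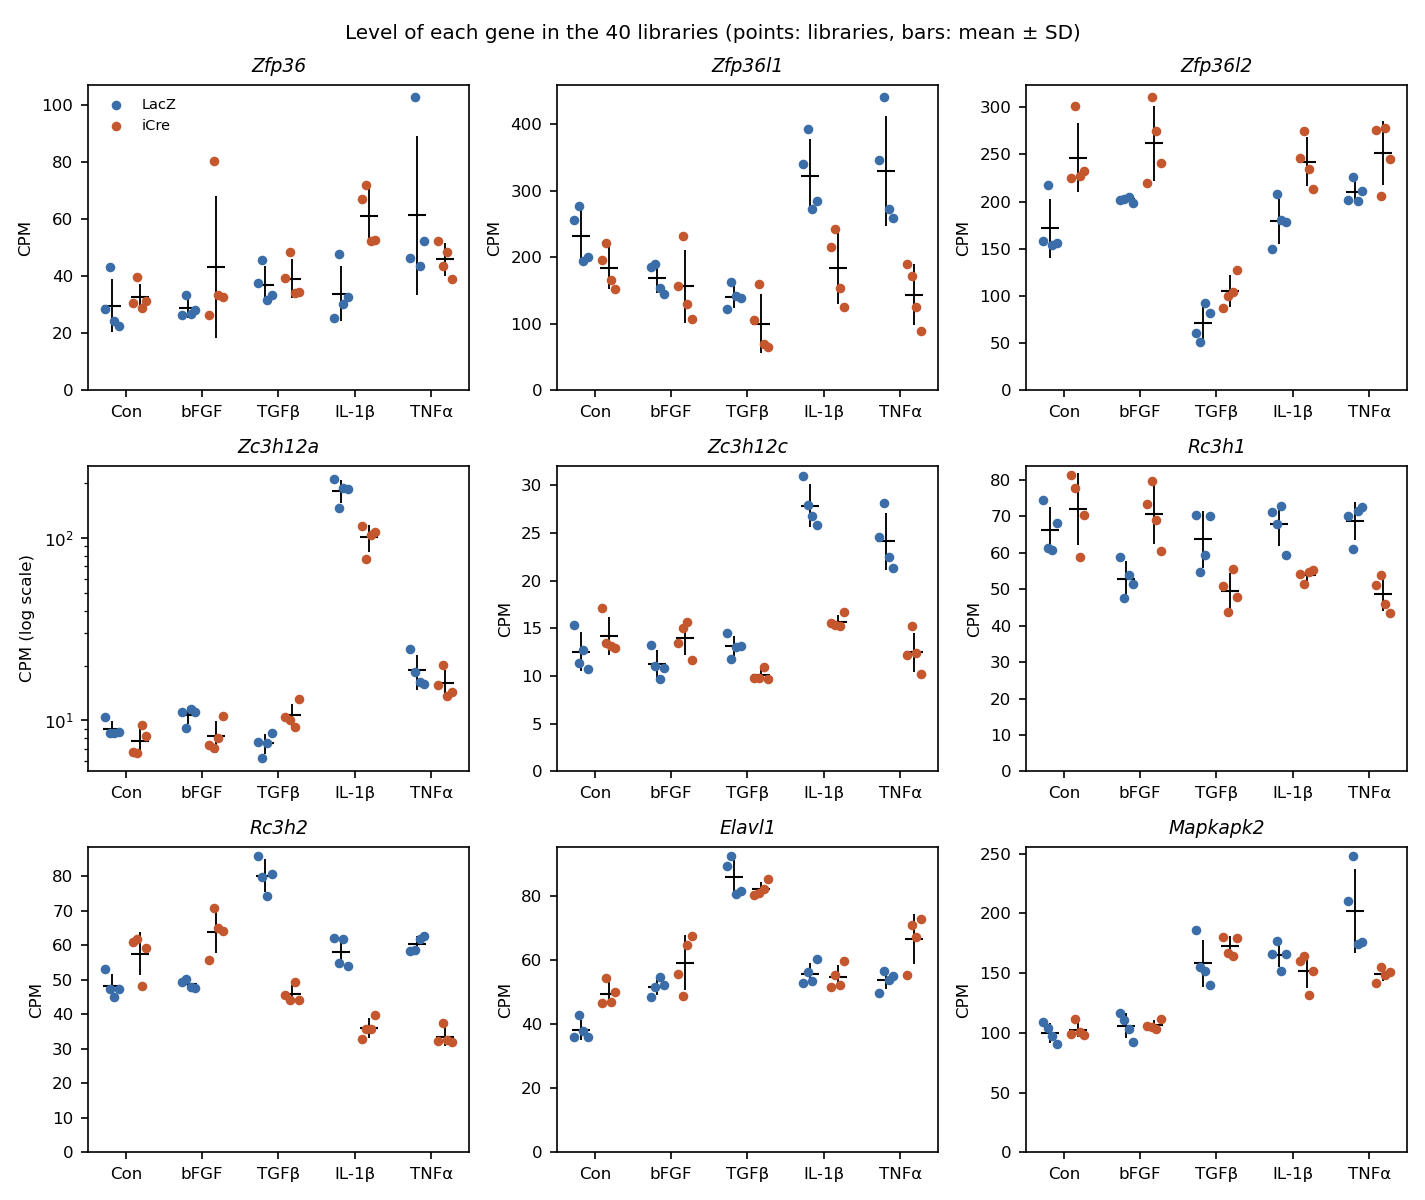
Level of each of the 9 genes in CPM (log scale for *Zc3h12a*, linear from 0 for the others) in the 40 libraries, by ligand, with LacZ in blue, iCre in orange and the mean ± SD of each group in black. *Zc3h12a* with IL-1β stands at 146 to 210 CPM in LacZ and 76.4 to 116 in iCre, above every library without IL-1β.

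Per kilobase of all annotated exons of a gene, *Zfp36l1* was the most abundant of the 9 in LacZ Con, at 77.6 CPM per kb, followed by *Zfp36l2* at 48.6 and *Mapkapk2* at 33. The others lay well below, with *Zfp36* at 8.57, *Rc3h1* at 5.85, *Elavl1* at 3.69, *Zc3h12a* at 3.13, *Rc3h2* at 2.45 and *Zc3h12c* at 1.83 CPM per kb. The order of the lower genes depends on the length used: per kilobase of the longest transcript *Zfp36* was at 10.7, *Elavl1* at 6.65, *Rc3h1* at 6.01, *Rc3h2* at 5.38, *Zc3h12a* at 3.28 and *Zc3h12c* at 1.86. With IL-1β, *Zc3h12a* stood at 63.3 CPM per kb of exons in LacZ and 35.1 in iCre. In LacZ with IL-1β only *Zfp36l1*, at 108 CPM per kb, was above it.

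The first question was what each ligand did in LacZ fibroblasts. Each ligand was compared with the same 4 Con libraries, so the 4 comparisons are not independent of each other. Each of the 9 genes had at least 205 counts in every library, whereas a gene needed only 10 over all 40 to be tested. The shares of all genes given here and below are therefore not matched by level to the genes beside them. Whether the 9 changed more often than genes of like level was not tested. IL-1β raised 6 of the 9 genes and lowered none, where 20.7% of all genes tested changed in either direction, and TNFα raised 6 and lowered none against 21.3%. The median log2 fold change of the 9 was 0.49 with IL-1β and 0.51 with TNFα, beside -0.0973 and -0.0828 over all genes. TGFβ raised 3 and lowered 2 where 36.9% of all genes changed (medians 0.08 and -0.17). bFGF raised 1 of the 9, *Elavl1*, where 11.6% of all genes changed (medians 0.04 and -0.0259). With the replicate number as a block, bFGF raised 2 and lowered 2 of the 9, and changed 27.3% of all genes. The summed fibroblast markers were at 30434 to 47665 CPM in LacZ Con and 57153 to 66622 with TGFβ, mural markers at 101 to 551 and 645 to 1165, and cardiomyocyte markers at 14.7 to 110 in Con and 2.85 to 14.4, 0.299 to 1.67 and 0.944 to 6.65 with TGFβ, IL-1β and TNFα. Their part in these counts was not tested, and the other marker sums overlapped Con with every ligand.

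In iCre fibroblasts, again against shared Con libraries, IL-1β raised 3 of the 9 genes and lowered 2 where 16.3% of all genes changed, and TNFα raised 4 and lowered 2 where 27% changed. TGFβ raised 3 and lowered 5, where 37.4% of all genes changed. bFGF changed none by edgeR's quasi-likelihood test, where 2.42% of all genes changed, and 1 of the 9 had an unadjusted p under 0.05, beside 16.7% of all genes. By DESeq2 bFGF also changed none, where 11.7% of the 17007 genes to which it gave an adjusted p changed. The medians of the 9 were 0.16, 0.06, -0.31 and 0.10 for IL-1β, TNFα, TGFβ and bFGF, beside 0, -0.0396, -0.107 and 0 over all genes. With GC correction the median turned from -0.31 to 0.12 for TGFβ and went to 0.22 for IL-1β and 0.18 for TNFα. Summed fibroblast markers were at 20809 to 37001 CPM in iCre Con and 46878 to 61773 with TGFβ, and their part was not tested. In the GC-corrected fit without a block 4 were higher and 0 lower with IL-1β, 3 higher and 0 lower with TNFα, and 3 higher and 2 lower with TGFβ, where 9.65%, 24.3% and 36.8% of all genes changed. With GC correction and the block together 5 were higher and 1 lower with IL-1β (*Zfp36l2*, -0.20, adjusted p = 0.0168) and 4 higher and 1 lower with TNFα (*Zfp36l1*, -0.42, adjusted p = 0.00915), where 29.5% and 34.2% of all genes changed. With the replicate block bFGF lowered 1 gene, *Zfp36l1* (-0.26, adjusted p = 0.0439), and changed 16.7% of all genes.

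**Figure D2:**
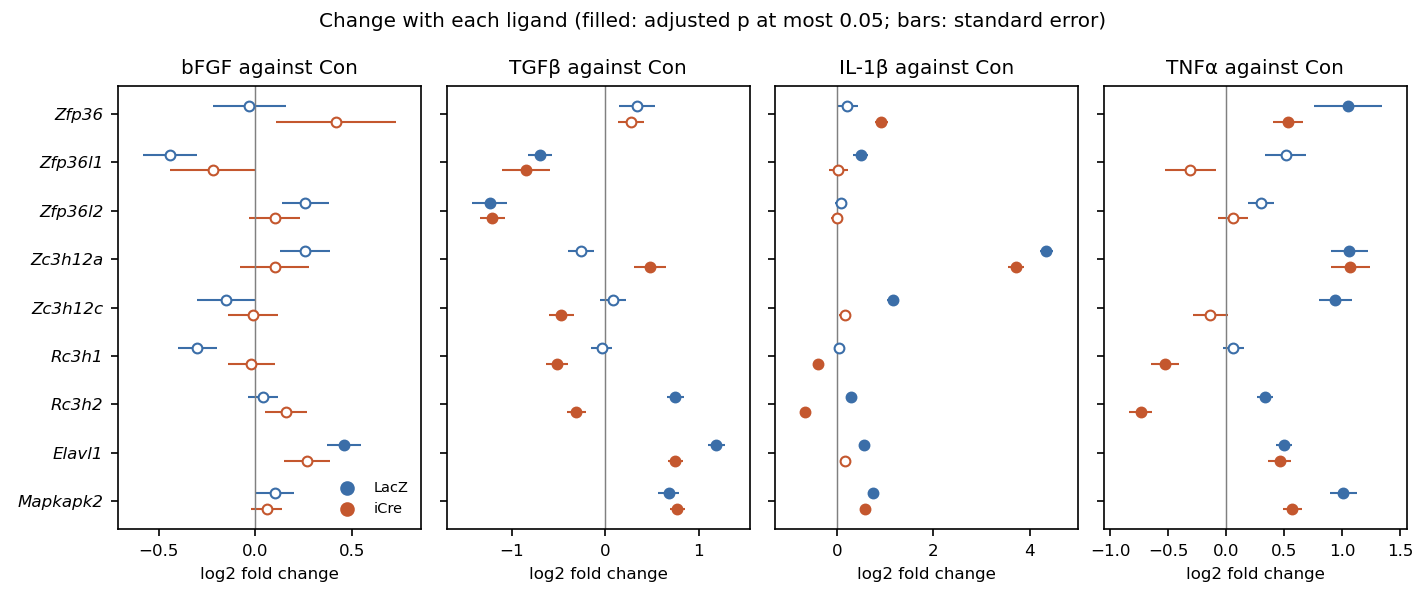
Log2 fold change (± SE) of each gene with each ligand against Con in LacZ (blue) and iCre (orange) fibroblasts, from fits of 4 against 4 libraries without GC correction, with filled points at an adjusted p of at most 0.05. *Zc3h12a* with IL-1β is farthest from 0, at 4.35 in LacZ and 3.72 in iCre, and *Zfp36l2* with TGFβ is lowest, at -1.24 and -1.21.

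*Zc3h12a*, the gene for the endonuclease Regnase-1 that cleaves *Il6* and other cytokine mRNAs, had the largest change of the 9. In LacZ Con its 4 libraries stood at 10.4, 8.5, 8.53 and 8.66 CPM, and with IL-1β at 210, 146, 189 and 185 CPM. In iCre Con they stood at 6.71, 6.64, 9.47 and 8.17 CPM, and with IL-1β at 116, 76.4, 104 and 108 CPM. The groups with and without IL-1β were far apart under both viruses, and all 4 iCre libraries with IL-1β lay below all 4 LacZ libraries with IL-1β. The log2 fold change with IL-1β was 4.35 (SE 0.14, 20.3-fold, adjusted p = 1.65e-07) in LacZ and 3.72 (SE 0.17, 13.2-fold, adjusted p = 7.48e-06) in iCre. Under IL-1β its level was 1.82-fold lower in iCre than in LacZ (log2 difference -0.87, SE 0.15, adjusted p = 0.0039, and -1.12 with GC correction). The test of the difference between the 2 responses gave -0.64 (SE 0.21), which did not pass in the fit without a block (adjusted p = 0.0816) and passed with the block (adjusted p = 0.00308), with GC correction (-0.85, adjusted p = 0.0258) and with DESeq2 (adjusted p = 0.0296).

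TNFα moved *Zc3h12a* less. Its 4 libraries stood at 24.8, 18.5, 16.3 and 15.9 CPM in LacZ and at 15.6, 20.2, 13.7 and 14.3 CPM in iCre, all above their Con libraries. The log2 fold change was 1.06 (SE 0.16, adjusted p = 0.00122) in LacZ and 1.07 (SE 0.17, adjusted p = 0.00133) in iCre, and the difference between the 2 responses was -0.00 (SE 0.24, adjusted p = 1). These values are without GC correction. With it the mean went from 9.43 CPM in Con to 20.2 with TNFα in LacZ, and from 7.86 to 14.6 in iCre. Set directly against TNFα, IL-1β gave a level 9.67-fold higher in LacZ (log2 3.27, SE 0.17, adjusted p = 4.11e-06) and 6.32-fold higher in iCre (log2 2.66, SE 0.17, adjusted p = 0.000716). TGFβ gave 6.26 to 8.49 CPM in LacZ (-0.26, adjusted p = 0.184) and 9.17 to 13.1 CPM in iCre (0.48, SE 0.17, adjusted p = 0.0425). The iCre value was 0.29 after GC correction (adjusted p = 0.174) and missed the threshold without replicate 1, 2 or 4 (adjusted p = 0.0716 to 0.173). With bFGF the level was 9.08 to 11.6 CPM in LacZ (0.26, adjusted p = 0.242) and 7.02 to 10.6 in iCre (0.10, adjusted p = 0.838).

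*Zc3h12c*, the gene for Regnase-3, rose with both inflammatory ligands in LacZ. Its libraries stood at 15.4, 11.4, 12.7 and 10.7 CPM in LacZ Con, at 31, 27.9, 26.8 and 25.8 with IL-1β and at 24.6, 28.1, 22.5 and 21.3 with TNFα. In iCre they stood at 17.1, 13.5, 13.2 and 12.9 CPM in Con, at 15.6, 15.3, 15.2 and 16.7 with IL-1β and at 12.2, 15.2, 12.4 and 10.2 with TNFα. In LacZ both ligands put all libraries above Con, whereas in iCre the groups overlapped. The log2 fold change in LacZ was 1.16 (SE 0.13, adjusted p = 0.000228) with IL-1β and 0.94 (SE 0.14, adjusted p = 0.00111) with TNFα, and in iCre 0.17 (SE 0.12, adjusted p = 0.375) and -0.14 (SE 0.15, adjusted p = 0.515).

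The 2 responses of *Zc3h12c* differed between the viruses by -1.0 (SE 0.17, adjusted p = 0.00143) for IL-1β and by -1.10 (SE 0.20, adjusted p = 0.00165) for TNFα. With GC correction these differences were -0.64 (adjusted p = 0.0523, and 0.00237 with the block as well) and -0.73 (adjusted p = 0.032). The direct comparison of iCre with LacZ gave -0.84 (SE 0.10, adjusted p = 0.00038) under IL-1β and -0.93 (SE 0.14, adjusted p = 0.00129) under TNFα, and -0.43 and -0.50 after GC correction (adjusted p = 0.0222 and 0.0338). After that correction the response to IL-1β in iCre was 0.51 (adjusted p = 0.0227). With TGFβ its libraries lay at 11.8 to 14.5 CPM in LacZ (0.08, adjusted p = 0.691) and at 9.74 to 11 in iCre (-0.47, SE 0.13, adjusted p = 0.0133), a difference from Con that was -0.09 after GC correction (adjusted p = 0.64) and missed the threshold without replicate 1 or 4 (adjusted p = 0.0534 to 0.0928). bFGF gave -0.15 (adjusted p = 0.59) in LacZ and -0.01 (adjusted p = 0.998) in iCre.

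Of the summed CPM of both Regnase genes, *Zc3h12a* made up 42% ± 2.15 in LacZ Con and 35.5% ± 6.06 in iCre Con (SD, n = 4). With IL-1β it made up 86.6% ± 1.8 in LacZ and 86.3% ± 2.1 in iCre, while the sum was 210 CPM in LacZ and 117 CPM in iCre. These shares are of CPM without GC correction and were not tested.

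*Zfp36l1* had the highest CPM of the ZFP36 genes in LacZ Con and fell with TGFβ. Its libraries stood at 256, 277, 194 and 200 CPM in LacZ Con and at 122, 162, 141 and 138 with TGFβ, and in iCre at 196, 221, 165 and 152 CPM in Con and 106, 160, 69.6 and 65.1 with TGFβ. All LacZ libraries with TGFβ lay below Con, and in iCre 1 library with TGFβ, replicate 2, reached the range of Con. The log2 fold change was -0.70 (SE 0.13, adjusted p = 0.00157) in LacZ and -0.85 (SE 0.26, adjusted p = 0.0242) in iCre, the latter missing the threshold without replicate 1, 3 or 4 (adjusted p = 0.0637 to 0.0916). The difference between the responses was -0.18 (SE 0.31, adjusted p = 0.889).

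With the inflammatory ligands the level of *Zfp36l1* parted by virus. In LacZ its libraries were at 340, 392, 273 and 285 CPM with IL-1β and at 346, 440, 273 and 259 with TNFα. In iCre they were at 216, 242, 154 and 125 CPM with IL-1β and at 190, 171, 125 and 89 with TNFα. Under either ligand every iCre library lay below every LacZ library. The iCre level was lower by 0.82 on the log2 scale under IL-1β (SE 0.20, adjusted p = 0.0193, missing the threshold without replicate 1 or 3 at 0.0578 and 0.0904) and by 1.17 under TNFα (SE 0.25, adjusted p = 0.00659, and -1.20 with GC correction). Against LacZ Con the change was 0.49 with IL-1β (SE 0.15, adjusted p = 0.0418, 0.0531 with GC correction and 0.106 to 0.139 without replicate 1, 3 or 4) and 0.51 with TNFα (SE 0.18, adjusted p = 0.0751, and 3.7e-06 with the block). Against iCre Con it was 0.03 (adjusted p = 0.966) and -0.31 (adjusted p = 0.333, and 0.0241 with the block). The difference of the TNFα responses was -0.84 (SE 0.31, adjusted p = 0.0818, and 0.000383 with the block) and that of the IL-1β responses -0.48 (SE 0.27, adjusted p = 0.355, and 0.00303 with the block). bFGF put all LacZ libraries (145 to 190 CPM) below Con (-0.44, adjusted p = 0.0815, and 0.000174 with the block), and in iCre they were at 107 to 232 CPM (-0.22, adjusted p = 0.65).

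*Zfp36l2* fell with TGFβ under both viruses. Its libraries were at 158, 218, 154 and 156 CPM in LacZ Con and at 60.6, 51.4, 93.1 and 82.2 with TGFβ. In iCre they were at 225, 301, 227 and 232 CPM in Con and at 87.8, 100, 104 and 128 with TGFβ. The groups did not overlap under either virus. The log2 fold change was -1.24 (SE 0.19, adjusted p = 0.000467) in LacZ and -1.21 (SE 0.13, adjusted p = 4.98e-05) in iCre, 2.35-fold and 2.32-fold lower, and the difference between these responses was -0.00 (SE 0.25, adjusted p = 1). These values are without GC correction. With it the mean went from 178 CPM in Con to 77.2 with TGFβ in LacZ, and from 253 to 95.6 in iCre. IL-1β gave 0.08 (adjusted p = 0.73) in LacZ and -0.01 (adjusted p = 0.993) in iCre. TNFα gave 0.30 in LacZ (SE 0.11, adjusted p = 0.0914, and 0.000775 with the block) and 0.06 in iCre (adjusted p = 0.781), and bFGF 0.26 (adjusted p = 0.199, and 0.0215 with the block) and 0.10 (adjusted p = 0.766).

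Without ligand, all 4 iCre libraries of *Zfp36l2* lay above all 4 LacZ libraries, a log2 difference of 0.51 (SE 0.14) that passed with the block (adjusted p = 0.147 without it, 1.78e-05 with it) and with DESeq2 (adjusted p = 0.0157). Under IL-1β the iCre level was higher by 0.42 (SE 0.11, adjusted p = 0.0279), which was 0.22 after GC correction (adjusted p = 0.282) and missed the threshold without replicate 1, 3 or 4 (adjusted p = 0.0625 to 0.142). Under TGFβ it was 0.52 (SE 0.19, adjusted p = 0.131, and 0.000449 with the block), under bFGF 0.37 (SE 0.12, adjusted p = 0.378, and 0.00332 with the block) and under TNFα 0.28 (SE 0.11, adjusted p = 0.0972). In Con, *Zfp36l1* was lower in iCre by 0.35 on the log2 scale in the blocked fit (adjusted p = 0.000787, and 0.334 without the block).

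*Zfp36* itself, the gene for tristetraprolin, was the least abundant of the ZFP36 genes and rose with TNFα under both viruses and with IL-1β in iCre. In LacZ its libraries were at 28.6, 43.1, 24.5 and 22.6 CPM in Con, at 46.3, 103, 43.7 and 52.4 with TNFα and at 25.3, 47.7, 30.2 and 32.6 with IL-1β. In iCre they were at 30.7, 39.6, 29 and 31.2 CPM in Con, at 52.4, 43.7, 48.6 and 39 with TNFα and at 67, 72, 52.3 and 52.7 with IL-1β. Replicate 2 was the highest library in LacZ with TNFα by far. The log2 fold change with TNFα was 1.05 in LacZ (SE 0.29, adjusted p = 0.0297, and 0.0722 to 0.119 without replicate 1, 3 or 4) and 0.53 in iCre (SE 0.13, adjusted p = 0.0126, 0.0734 with GC correction and 0.066 to 0.114 without replicate 1 or 3). With IL-1β it was 0.21 in LacZ (SE 0.22, adjusted p = 0.554) and 0.92 in iCre (SE 0.14, adjusted p = 0.00199). Both responses are measured at 24 h only.

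Under IL-1β, *Zfp36* was 1.78-fold higher in iCre than in LacZ (log2 0.83, SE 0.18, adjusted p = 0.0108), with all iCre libraries above all LacZ libraries. The call was lost with GC correction (0.64, adjusted p = 0.0518, and 4.05e-05 with the block as well) and without replicate 1 or 3 (adjusted p = 0.0626 and 0.0637). The difference of the IL-1β responses was 0.70 (SE 0.29, adjusted p = 0.178, and 0.00329 with the block), and that of the TNFα responses -0.53 (SE 0.35, adjusted p = 0.357). With TGFβ the change was 0.34 in LacZ (adjusted p = 0.194, and 0.00593 with the block) and 0.28 in iCre (adjusted p = 0.144, and 0.0207 with the block). The iCre value was 0.12 with GC correction and block (adjusted p = 0.338). bFGF gave -0.03 (adjusted p = 0.954) in LacZ and 0.42 (adjusted p = 0.543) in iCre, where replicate 2 stood at 80.5 CPM and the other 3 at 26.3 to 33.6. Reads of *Zfp36* may include some of its antisense neighbour Gm44710 (4317 counts in all), since the strand setting of the counting is not given in the sources used here. The same holds for *Elavl1* and *Ccl25* on the opposite strand (6725 counts), and for *Zfp36l2* and AC132455.1 (331 counts).

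**Figure D3:**
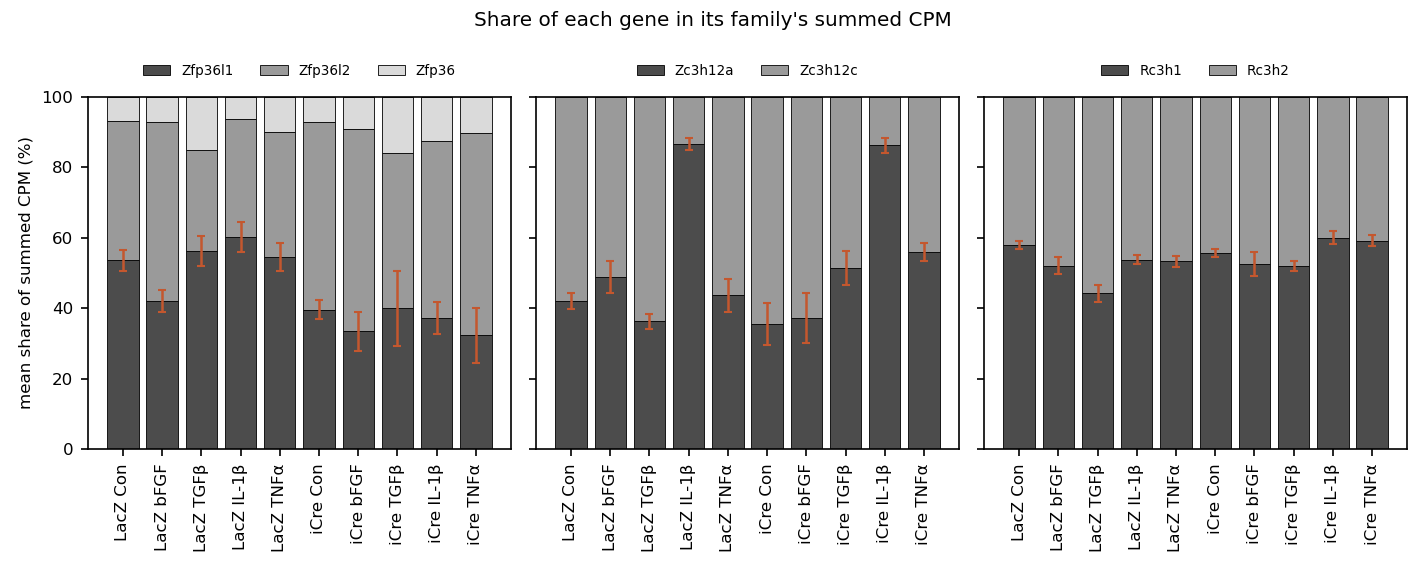
Mean share of each gene in the summed CPM of its family in each of the 10 groups (4 libraries each), without GC correction, for the ZFP36, Regnase and roquin genes, with error bars of 1 SD for the first gene named in each panel. *Zfp36l1* makes up 53.6% of the ZFP36 sum in LacZ Con and 39.6% in iCre Con, and *Zc3h12a* 86.6% and 86.3% of the Regnase sum with IL-1β.

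Of the summed CPM of the ZFP36 genes, *Zfp36l1* made up 53.6% ± 2.92 in LacZ Con and 39.6% ± 2.78 in iCre Con (SD, n = 4), and *Zfp36l2* 39.6% ± 2.69 and 53.3% ± 2.51. The sum was 433 CPM in LacZ Con and 462 CPM in iCre Con. With TNFα, *Zfp36l1* made up 54.5% ± 4.04 in LacZ and 32.3% ± 7.77 in iCre, of sums of 601 and 441 CPM. With TGFβ the sums were 250 CPM in LacZ and 244 CPM in iCre, the lowest of all groups under each virus.

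*Rc3h1* and *Rc3h2*, the genes for roquin-1 and roquin-2, were lower than Con in iCre with TGFβ, IL-1β and TNFα, and these values depended on the GC correction. *Rc3h2* was at 53, 47.4, 45 and 47.3 CPM in LacZ Con and at 85.8, 79.8, 74.3 and 80.7 with TGFβ, with no overlap (log2 0.75, SE 0.09, adjusted p = 7.87e-05). It was also higher in LacZ with IL-1β (0.28, SE 0.09, adjusted p = 0.0402, and 0.0558 to 0.234 with any of the 4 replicate numbers left out) and with TNFα (0.33, SE 0.07, adjusted p = 0.0102, and 0.0943 to 0.0995 without replicate 3 or 4). In iCre it was at 61, 61.7, 48.3 and 59.1 CPM in Con, at 45.7, 44.1, 49.4 and 44.1 with TGFβ, at 32.8, 35.7, 35.7 and 39.9 with IL-1β and at 32.3, 37.6, 32.4 and 31.9 with TNFα. The libraries with IL-1β and TNFα all lay below iCre Con.

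Without GC correction the iCre changes of *Rc3h2* were -0.31 with TGFβ (SE 0.10, adjusted p = 0.0284), -0.66 with IL-1β (SE 0.10, adjusted p = 0.00243) and -0.74 with TNFα (SE 0.10, adjusted p = 0.000748). With it they were 0.30 (adjusted p = 0.0358), -0.09 (adjusted p = 0.643) and -0.18 (adjusted p = 0.232), so that the first turned direction and the other 2 calls were lost. The first also missed the threshold without replicate 1, 2 or 4 (adjusted p = 0.0712 to 0.156). The differences of iCre from LacZ went the same way, from -0.84, -0.71 and -0.82 (adjusted p = 0.000206, 0.000772 and 0.000177) to -0.20, -0.09 and -0.17 (adjusted p = 0.457, 0.638 and 0.155) with TGFβ, IL-1β and TNFα. The differences of the responses were -1.09, -0.95 and -1.08 without GC correction (adjusted p = 6.17e-05, 0.000243 and 3.9e-05) and -0.51, -0.40 and -0.49 with it (adjusted p = 0.122, 0.12 and 0.0132, and 0.0331, 0.0448 and 0.00474 with the block as well). With bFGF the change was 0.04 in LacZ (adjusted p = 0.827) and 0.16 in iCre (adjusted p = 0.494).

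*Rc3h1* in LacZ was at 60.7 to 74.4 CPM in Con, 54.8 to 70.5 with TGFβ (-0.04, adjusted p = 0.834), 59.5 to 72.8 with IL-1β (0.05, adjusted p = 0.799) and 61.2 to 72.6 with TNFα (0.06, adjusted p = 0.702). With bFGF all LacZ libraries (47.7 to 58.9 CPM) lay below Con (-0.30, adjusted p = 0.087, and 0.00595 with the block, and -0.40 with GC correction, adjusted p = 0.0417). In iCre it was at 59 to 81.4 CPM in Con, and at 43.9 to 55.6, 51.4 to 55.3 and 43.5 to 54 CPM with TGFβ, IL-1β and TNFα. These falls of 0.52, 0.40 and 0.53 on the log2 scale (adjusted p = 0.00491, 0.0258 and 0.00795) were -0.16, -0.08 and -0.23 after GC correction (adjusted p = 0.334, 0.695 and 0.179). The iCre level was below LacZ by 0.35 under IL-1β (adjusted p = 0.0208) and by 0.48 under TNFα (adjusted p = 0.00491), and these differences were 0.04 and -0.07 after GC correction (adjusted p = 0.845 and 0.611). Its TNFα responses differed by -0.60 (SE 0.15, adjusted p = 0.0116), and by -0.25 after GC correction (adjusted p = 0.333). Several of these calls also missed the threshold when a replicate number was left out of every group compared, with adjusted p of 0.0742 to 0.133 for IL-1β in iCre without replicate 1, 2 or 4, of 0.0859 to 0.141 for iCre against LacZ under IL-1β without replicate 1, 2 or 3, of 0.0665 for that under TNFα without replicate 3 and of 0.0517 to 0.114 for the TNFα responses without replicate 3 or 4. bFGF in iCre gave -0.02 (adjusted p = 0.969).

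*Elavl1*, the gene for HuR, rose with all 4 ligands in LacZ. Its libraries were at 36, 42.8, 37.9 and 36.1 CPM in LacZ Con and at 89.6, 92.7, 80.6 and 81.8 with TGFβ, its highest level. With bFGF they were at 48.5 to 54.8 CPM, with IL-1β at 52.9 to 60.3 and with TNFα at 49.8 to 56.8, all above Con. The log2 fold changes were 1.19 (SE 0.09, adjusted p = 5.74e-06) with TGFβ, 0.56 (SE 0.08, adjusted p = 0.00102) with IL-1β, 0.50 (SE 0.07, adjusted p = 0.00132) with TNFα and 0.46 (SE 0.09, adjusted p = 0.00913) with bFGF. The bFGF call was lost without replicate 3 or 4 (adjusted p = 0.117 and 0.0851).

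In iCre, *Elavl1* was at 46.7, 54.6, 47.1 and 50 CPM in Con and at 80.4, 81, 82.3 and 85.5 with TGFβ. The iCre Con libraries all lay above LacZ Con, by 0.37 on the log2 scale (SE 0.08, adjusted p = 0.102, and 0.000977 with the block). TGFβ raised it by 0.75 (SE 0.08, adjusted p = 3.13e-05) and TNFα by 0.46 (SE 0.10, adjusted p = 0.00831, and 0.0795 to 0.0818 without replicate 3 or 4), while IL-1β gave 0.16 (adjusted p = 0.232, and 0.22 with GC correction and block, adjusted p = 0.0105) and bFGF 0.27 (adjusted p = 0.279). The responses to TGFβ and IL-1β differed between the viruses by -0.47 (SE 0.11, adjusted p = 0.0158) and -0.41 (SE 0.11, adjusted p = 0.0251). With GC correction these differences were -0.36 and -0.32 and did not pass without the block (adjusted p = 0.186 and 0.0884, and 0.0907 and 0.0248 with it), and both were lost when some replicate numbers were left out (adjusted p = 0.105 to 0.131 for TGFβ without replicate 1, 3 or 4, and 0.0539 to 0.162 for IL-1β without any 1 of the 4). Under TNFα the iCre level was higher than in LacZ by 0.32 (SE 0.10, adjusted p = 0.0297, and 0.0999 to 0.161 without replicate 2, 3 or 4).

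*Mapkapk2*, the gene for the kinase MK2, rose with TGFβ, IL-1β and TNFα under both viruses. Its libraries were at 109, 104, 97 and 90.3 CPM in LacZ Con and at 210, 248, 174 and 176 with TNFα, and in iCre at 98.8, 112, 101 and 98.5 CPM in Con and 142, 155, 148 and 151 with TNFα. TGFβ gave 140 to 186 CPM in LacZ and 164 to 180 in iCre, and IL-1β 152 to 177 and 132 to 164. None of these groups overlapped its Con group. The log2 fold changes in LacZ were 0.68 with TGFβ (SE 0.11, adjusted p = 0.000757), 0.74 with IL-1β (SE 0.09, adjusted p = 0.000347) and 1.01 with TNFα (SE 0.12, adjusted p = 0.000416). In iCre they were 0.77 (SE 0.08, adjusted p = 2.75e-05), 0.59 (SE 0.09, adjusted p = 0.00234) and 0.57 (SE 0.08, adjusted p = 0.000647). With GC correction the iCre changes were 0.57, 0.37 (adjusted p = 0.0463) and 0.41. Under TNFα every iCre library lay below every LacZ library (-0.42, SE 0.12, adjusted p = 0.0261), and the responses differed by -0.45 (SE 0.14, adjusted p = 0.0426), both being -0.66 with GC correction (adjusted p = 0.00994 for the responses). Without replicate 1, 3 or 4 the first value had an adjusted p of 0.0584 to 0.0768, and without any 1 of the 4 the second had one of 0.0902 to 0.122. Under IL-1β the difference of iCre from LacZ was -0.14 (adjusted p = 0.357), and -0.39 with GC correction (adjusted p = 0.0362). bFGF gave 0.10 (adjusted p = 0.581) in LacZ and 0.06 (adjusted p = 0.742) in iCre.

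The second question was how iCre and LacZ fibroblasts differed at a given ligand. Without ligand, none of the 9 genes passed edgeR's test between iCre and LacZ, where 0.0754% of all genes did. At an unadjusted p under 0.05 there were 4 of the 9 and 14% of all genes. DESeq2 called 2 of the 9, and 8.88% of the 15160 genes to which it gave an adjusted p. With the replicate block, which called 14.5% of all genes, 3 were higher in iCre (*Zfp36l2*, *Rc3h2* and *Elavl1*) and 1 was lower (*Zfp36l1*). With bFGF, again none of the 9 passed edgeR's test, where 0% of all genes did, and 4 had an unadjusted p under 0.05 (10.3% of all genes). DESeq2 called 2 with bFGF (3% of the 16033 genes to which it gave an adjusted p). The blocked fit, with 13.9% of all genes, called 4 higher (*Zfp36*, *Zfp36l2*, *Rc3h1* and *Rc3h2*) and 1 lower (*Zc3h12a*). The medians of the 9 were 0.13 in Con and 0.32 with bFGF, beside -0.0348 and 0.00449 over all genes. With TGFβ 1 of the 9 was lower in iCre, where 8.37% of all genes differed. With the block 2 were higher and 4 lower (20.8% of all genes), and the GC-corrected fit called 0 (0.937%). The gene that passed was *Rc3h2*. The others ranged from -0.52 for *Zfp36l1* (adjusted p = 0.271) to 0.52 for *Zfp36l2*, with *Rc3h1* at -0.39 (adjusted p = 0.0556), *Zc3h12c* at -0.41 (adjusted p = 0.0559), *Elavl1* at -0.10, *Zfp36* at 0.05, *Mapkapk2* at 0.09 and *Zc3h12a* at 0.49 (adjusted p = 0.0925). With GC correction *Zfp36l2* was at 0.28, *Zc3h12a* at 0.20, *Zc3h12c* and *Rc3h1* both at 0.01, *Zfp36* at -0.17 and *Mapkapk2* at -0.21.

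With IL-1β, 2 of the 9 genes were higher in iCre and 5 lower, where 16.1% of all genes differed. Higher were *Zfp36* and *Zfp36l2*, and lower were *Zfp36l1*, both Regnase genes and both roquin genes. With TNFα 1 was higher (*Elavl1*) and 5 lower (*Zfp36l1*, *Zc3h12c*, *Rc3h1*, *Rc3h2* and *Mapkapk2*), where 27.3% of all genes differed. With GC correction the counts were 0 higher and 4 lower for IL-1β (*Zfp36l1*, *Zc3h12a*, *Zc3h12c* and *Mapkapk2*, with neither roquin gene) and 1 higher and 3 lower for TNFα (*Elavl1* higher, *Zfp36l1*, *Zc3h12c* and *Mapkapk2* lower), where 9.25% and 22.7% of all genes differed. The median log2 difference of the 9 was -0.35 with IL-1β and -0.42 with TNFα, beside 0.0423 and 0 over all genes. With GC correction it was -0.09 and -0.45, beside 0.019 and 0.00277. Summed fibroblast markers were also lower in iCre, at 22845 to 35690 CPM against 36618 to 69714 with IL-1β and at 15351 to 23387 against 25795 to 34599 with TNFα. Cardiomyocyte markers with IL-1β were at 1.93 to 16.3 CPM in iCre and 0.299 to 1.67 in LacZ, and the part of either was not tested.

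**Figure D4:**
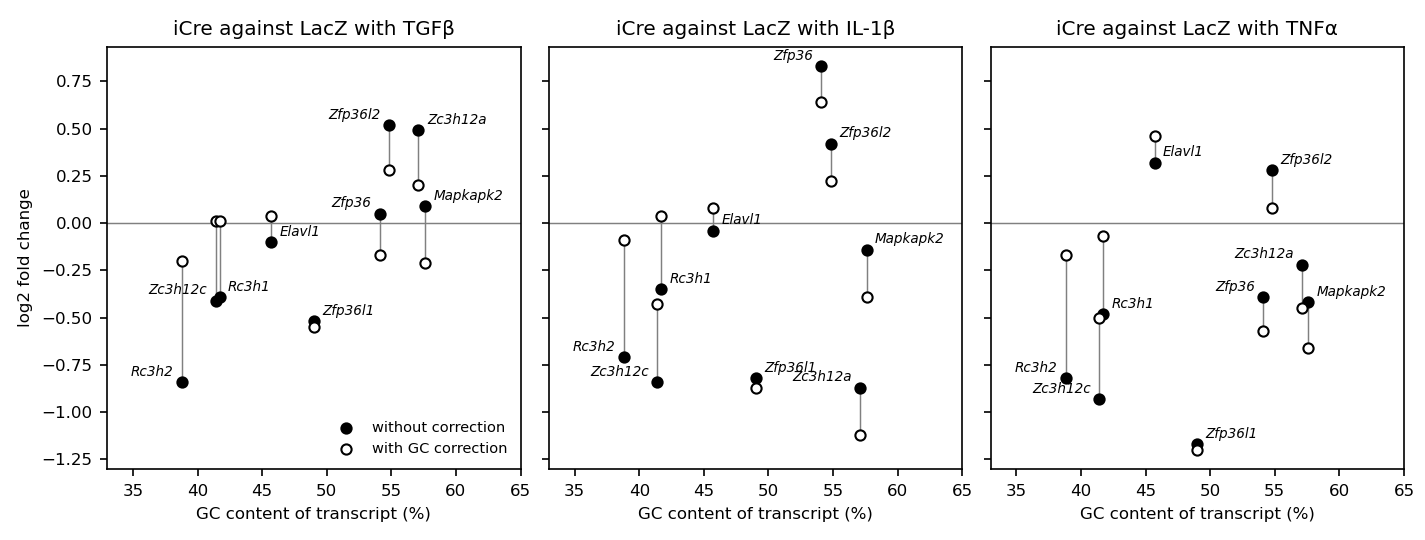
Log2 difference of iCre from LacZ for each of the 9 genes under TGFβ, IL-1β and TNFα, against the GC content of its longest transcript, without (filled) and with (open) GC correction. The 3 genes at 38.8% to 41.7% GC move up with the correction and those above 54% move down, while *Zfp36l1*, at 49% GC, goes from -0.82 to -0.87 with IL-1β and from -1.17 to -1.20 with TNFα.

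Whether a ligand acted differently in iCre and LacZ was tested as an interaction over 16 libraries. For bFGF none of the 9 genes passed edgeR's test or DESeq2, where 0% of all genes did, and none had an unadjusted p under 0.05, beside 3.03% of all genes. For TGFβ 2 of the 9 responses were lower in iCre (*Rc3h2* and *Elavl1*) where 4.51% of all genes differed, for IL-1β 3 (*Zc3h12c*, *Rc3h2* and *Elavl1*) where 7.71% did and for TNFα 4 (*Zc3h12c*, *Rc3h1*, *Rc3h2* and *Mapkapk2*) where 16.1% did. None was higher in iCre in these 3 tests without a block. The TGFβ response of *Zc3h12a* differed by 0.72 (SE 0.22, adjusted p = 0.0783), which passed with the block (adjusted p = 0.0273) and with DESeq2 (adjusted p = 0.00888), and was 0.47 with GC correction (adjusted p = 0.47). With GC correction and the block together, 1 response was lower for TGFβ, 6 were lower and 1 higher for IL-1β, and 4 were lower for TNFα, where 2.59%, 12.3% and 21.3% of all genes differed.

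A direct comparison was made between IL-1β and TNFα. In LacZ 1 of the 9 genes, *Zc3h12a*, differed, being higher with IL-1β, where 9.62% of all genes differed in either direction, and in iCre the same gene alone, where 2.65% did. The other 8 did not pass edgeR's test in either virus without a block. With the block, 2 were higher with IL-1β and 3 lower in LacZ (among them *Zfp36*, -0.80, adjusted p = 1.28e-09), and 3 higher and 1 lower in iCre, where 24.2% and 17.1% of all genes differed.

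The mRNAs known as targets of these regulators were given from a list of 22, of which 21 were tested (*Il10* was under the count minimum). IL-1β raised 15 and lowered none in LacZ, with a median log2 fold change of 2.96, and raised 12 and lowered none in iCre, with a median of 1.70 (20.7% and 16.3% of all genes changed). TNFα raised 10 in LacZ and 7 in iCre (21.3% and 27%). *Cxcl1* was at 7.41 ± 0.56 CPM in LacZ Con and at 1419 ± 479 with IL-1β, and in iCre at 3.38 ± 1.25 and 114 ± 47.4 (SD, n = 4). *Lcn2*, which encodes the siderophore-binding protein lipocalin 2, was at 2995 ± 833 CPM with IL-1β in LacZ and at 414 ± 122 in iCre. *Csf3*, for the granulocyte growth factor G-CSF, was at 27.7 ± 4.56 CPM with IL-1β in LacZ and 3.97 ± 1.77 in iCre, and at no more than 0.11 CPM in any Con library. Under IL-1β 2 of the 21 were higher in iCre than in LacZ and 6 lower (16.1% of all genes differed), and under TNFα 3 were higher and 3 lower (27.3%). TGFβ raised 7 and lowered 2 in LacZ, led by *Ptgs2*, at 621 ± 236 CPM against 11.4 ± 6.11 in Con, and *Il6*, at 84.3 ± 28.8 against 2.44 ± 0.578. In iCre it raised 6 and lowered 3, where 36.9% of all genes changed in LacZ and 37.4% in iCre. bFGF raised 7 and lowered 1 in LacZ and raised 1, *Lif*, in iCre (11.6% and 2.42%).

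The enzymes that act after these binding proteins were counted by step. Counts of lists come from the fit without block or GC correction, and 412 of 1482 of them moved by over 1.5 times, or to or from 0, under the alternatives. Of 18 genes of deadenylation, IL-1β raised 4 in LacZ and lowered none, TNFα raised 3 and lowered 1, and TGFβ raised 9 and lowered 2, where 20.7%, 21.3% and 36.9% of all genes changed. In iCre with IL-1β 2 were higher and 4 lower (16.3% of all genes changed), among them *Cnot7* and *Cnot6l*, for catalytic subunits of the CCR4-NOT complex, at -0.71 and -0.70. With GC correction and the block these were -0.10 and -0.02 (adjusted p = 0.424 and 0.928). Of 15 decapping genes, TNFα raised 4 in LacZ (21.3% of all genes changed), led by *Dcp2* for the decapping enzyme (101 ± 7.13 CPM against 52.3 ± 1.67, log2 0.95, adjusted p = 2.42e-05), and *Dcp2* was lower in iCre than in LacZ under TNFα by 1.35 on the log2 scale (adjusted p = 4.48e-05, and -1.02 with GC correction and block). In that comparison 8 of the 15 were higher in iCre and 3 lower (27.3% of all genes differed), and *Lsm3* and *Lsm7*, for subunits of the Lsm ring that binds mRNA ends, were higher by 0.95 and 0.86 (adjusted p = 0.00157 and 0.00154). In iCre TNFα raised 7 of the 15 and lowered 3 (27% of all genes changed), led by *Lsm6*, *Lsm4* and *Lsm2* (1.35, 1.35 and 1.34). Of 14 exosome genes tested (*Exosc6* was under the count minimum), TGFβ raised 7 in LacZ and 11 in iCre and lowered none, with medians of 0.32 and 0.55 (36.9% and 37.4% of all genes changed), and TNFα raised 3 in LacZ and 10 in iCre (21.3% and 27%).

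Of 14 genes for kin of the 9 and for other AU-rich binding proteins, IL-1β raised 5 in LacZ and 1 in iCre, lowering none and 1 (20.7% and 16.3% of all genes changed). The gene lowered was *Tia1*, for an AU-rich binding protein that represses translation, at -0.57 (adjusted p = 0.0286), and at -0.22 with GC correction and block (adjusted p = 0.07). Among them was *Arid5a*, whose product protects *Il6* mRNA from Regnase-1. It was at 10 ± 2.44 CPM in LacZ Con, 22 ± 4.55 with IL-1β and 42.1 ± 2.32 with TGFβ, and in iCre at 8.36 ± 1.63, 21.8 ± 3.18 and 42 ± 7.61 (SD, n = 4). *Malt1*, for the protease that cleaves Regnase-1, rose in LacZ with IL-1β (0.65, adjusted p = 0.00261) and TNFα (1.26, adjusted p = 1.07e-05). Its responses were lower in iCre by 0.89 and 1.43 on the log2 scale (adjusted p = 0.00209 and 9.01e-06), and by 0.10 and 0.58 with GC correction and block (adjusted p = 0.782 and 0.00551). Of 12 genes of the p38 and MK2 pathway, in LacZ IL-1β raised 2 and lowered 1, TNFα raised 3 and lowered 1 and TGFβ raised 3 and lowered 4 (20.7%, 21.3% and 36.9% of all genes changed). In iCre they raised 2, 3 and 4 and lowered 0, 0 and 4 (16.3%, 27% and 37.4%). *Mapk11*, for the β form of p38, rose with IL-1β and TNFα in LacZ (0.86 and 1.69) and in iCre (0.91 and 1.57). *Map2k6*, for a kinase that activates p38, was at 7.77 ± 0.409 CPM in LacZ Con and 0.63 ± 0.289 with TGFβ, a log2 fold change of -3.60 (adjusted p = 1.5e-05). It also fell with IL-1β in LacZ (-0.94, adjusted p = 0.0137), and *Dusp10*, for a phosphatase that acts on p38 and JNK, fell with TNFα in LacZ (-0.62, adjusted p = 0.0262).

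The genes whose 10 group means of log2 CPM were most like those of each member were sought among the 12300 protein-coding genes that averaged 1 CPM or more, as a description. They share the libraries and their GC trend, and over the 40 single libraries the same pairs correlated less, with r from 0.295 (*Zfp36* and *Syngr2*) to 0.969 (*Zc3h12a* and *Lcn2*). *Zc3h12a* was most like *Lcn2* (Pearson r = 0.990 over 10 groups), *Csf3* (0.975) and *Sprr2e* (0.956), and *Zc3h12c* most like *Plekhm3* (0.984), *Tlr5* (0.969) and *Bach1* (0.960). *Zfp36l1* was most like *Cyp4v3* (0.980), *C1rl* (0.978) and *Daam1* (0.976), *Zfp36l2* like *Dock4* (0.973), *AI413582* (0.970) and *Dnaic2* (0.967), and *Zfp36* like *Bptf* (0.893), *Ubr4* (0.893) and *Syngr2* (0.886). *Rc3h1* was most like *Jmy* (0.963), *Myo6* (0.958) and *Ddx6* (0.958), and *Rc3h2* like *Zfyve16* (0.987), *Usp34* (0.981) and *Gtf2a1* (0.976). *Elavl1* was most like *Pdcd6ip* (0.987), *Ywhag* (0.981) and *Apbb2* (0.978), and *Mapkapk2* like *Ube2f* (0.975), *Ehd1* (0.973) and *Arel1* (0.967).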

How the data were processed

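RNA was measured by single-end sequencing of poly(A) RNA in 40 libraries, 4 in each of 10 groups taken from the sample labels. Per the methods, reads were aligned to mm10 with STAR. The submitters' processing notes name FastQC 0.10.1 and HTSeq 0.10.0, and the authors deposited raw gene counts from HTSeq. The study tested genes with DESeq2, which is an alternative here. The annotation release and strand setting are not given in the sources used here, and the methods and labels name different library kits. Depth was 25360947 to 66160732 counts, and p-values cover the spread between the 4 libraries of a group.

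Genes with at least 10 counts over all libraries were tested with edgeR 4.0.16 (R 4.3.3) by the quasi-likelihood F-test after TMM scaling, with only the libraries of the groups compared, and p-values were adjusted by Benjamini-Hochberg over 25210 genes, a call being an adjusted p of at most 0.05. CPM used TMM-scaled library sizes. GC correction was a spline of 5 degrees of freedom on transcript GC content. It was fitted per library to the deviations of 12061 protein-coding genes from their means over the libraries. Its values for 24970 genes with a known GC content were used as an offset. Replicate numbers from the labels paired the samples: deviations from group means correlated at 0.573 on average for same-numbered and at -0.158 for other libraries, at 0.308 or more in every pair within a comparison, and at 0.023 or more in any pair of the 10 groups. Alternatives were DESeq2 1.42.0, other scalings and filters, the replicate block, GC correction, a covariate for library number range, one fit of all libraries and leaving out each replicate number. All 9 members and up to 3 called genes per list with the largest change were named in each comparison. Members and lists were chosen with earlier results of these data known.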

Additional observations from a re-analysis of the deposited data

Results flagged for a closer look

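In 8 of 90 groups of 4 libraries, 1 library stood apart from the other 3 by more than Dixon's 95% critical value, where chance gives about 1 in 20. Replicate 2 was the one in 5 of them. For *Zfp36* it stood at 103 CPM in LacZ with TNFα (the others at 43.7 to 52.4) and at 80.5 CPM in iCre with bFGF (26.3 to 33.6). For *Zfp36l2* it stood at 218 CPM in LacZ Con (154 to 158) and at 301 CPM in iCre Con (225 to 232). For *Rc3h2* it stood at 37.6 CPM in iCre with TNFα (31.9 to 32.4). Replicate 1 stood apart for *Zc3h12a* in LacZ Con, at 10.4 CPM (8.5 to 8.66), and for *Zc3h12c* in iCre Con, at 17.1 CPM (12.9 to 13.5). Replicate 3 of *Zc3h12c* in iCre with TGFβ was at 11 CPM (9.74 to 9.81).

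In 9 of 36 tests of members, the response to a ligand differed between iCre and LacZ by an interaction term in edgeR, where 0%, 4.51%, 7.71% and 16.1% of all genes did for bFGF, TGFβ, IL-1β and TNFα. The log2 differences were -1.09 (TGFβ), -0.95 (IL-1β) and -1.08 (TNFα) for *Rc3h2*, -1.0 (IL-1β) and -1.10 (TNFα) for *Zc3h12c*, -0.47 (TGFβ) and -0.41 (IL-1β) for *Elavl1*, -0.60 (TNFα) for *Rc3h1* and -0.45 (TNFα) for *Mapkapk2*. With GC correction alone the *Rc3h1* value, both *Elavl1* values, the IL-1β value of *Zc3h12c* and the TGFβ and IL-1β values of *Rc3h2* no longer passed (adjusted p = 0.333, 0.186, 0.0884, 0.0523, 0.122 and 0.12).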

How the results depend on the processing

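Of 2223 values of members under the alternatives, 1983 stayed on their side of the threshold, among them 74 that were not called and changed sign, 102 fell short of it, 134 newly passed it and 4 called values turned sign. Those were *Rc3h2* with TGFβ in iCre (0.30 with GC correction and 0.31 with GC correction and block, against -0.31) and *Rc3h1* in iCre against LacZ with IL-1β (0.04 and 0.05, against -0.35). Of 62 called differences 39 stayed called whichever replicate number was left out. The cause of these changes was not tested.

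The share of all genes called moved too, for example with the block from 11.6% to 27.3% for bFGF in LacZ and from 0.0754% to 14.5% for iCre against LacZ in Con, and nothing particular to the members is read from these moves. The replicate block moved the number of members called from 1 to 4 (bFGF in LacZ), 0 to 1 (bFGF in iCre), 0 to 4 (iCre against LacZ in Con), 0 to 5 (the same with bFGF), 1 to 6 (with TGFβ), 2 to 5 and 3 to 7 (interactions of TGFβ and IL-1β), and 1 to 5 and 1 to 4 (IL-1β against TNFα in LacZ and iCre). GC correction with the block gave 4, 1, 4, 6, 2, 1, 7, 5 and 4 in that order, and 5 for TGFβ in iCre (8 without). GC correction alone gave 2 (bFGF in LacZ), 5 (TGFβ in iCre), 3 (TNFα in iCre, from 6), 0 and 4 (iCre against LacZ with TGFβ and with IL-1β, the latter from 7), and 0 and 1 (interactions of TGFβ and IL-1β). DESeq2 gave 3 (bFGF in LacZ), 2, 2 and 4 (iCre against LacZ in Con, with bFGF and with TGFβ), 5 and 5 (interactions of TGFβ and IL-1β) and 2 (IL-1β against TNFα in LacZ). edgeR's expression filter gave 2 (bFGF in LacZ) and 3 (iCre against LacZ with TGFβ), and the covariate for library number range gave 2 (bFGF in LacZ). One fit of all libraries gave 2 (bFGF in LacZ), 1, 2 and 5 (iCre against LacZ in Con, with bFGF and with TGFβ), 4 (interaction of TGFβ), and 3 and 2 (IL-1β against TNFα in LacZ and iCre). With 1 replicate number left out the counts were 0 to 2 (bFGF in LacZ), 0 to 1 (bFGF in iCre), 4 to 7 (TGFβ in iCre), 4 to 8 (TNFα in LacZ), 0 to 2, 1 to 4, 3 to 6 and 3 to 6 (iCre against LacZ in Con, with TGFβ, IL-1β and TNFα), 1 to 2, 2 to 4 and 2 to 3 (interactions of TGFβ, IL-1β and TNFα) and 1 to 2 (IL-1β against TNFα in LacZ). The members had 205 to 22979 counts per library, and counting error was not separated from the spread between libraries.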
